A study of Drosophila melanogaster with 6 samples.

Results

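PARP1 knockdown (PARP1 KD) is meant to lower the amount of the protein, whereas PJ34 leaves the protein in place and blocks its PARylation activity. The direct comparison of these treatments therefore asks which transcripts separate less of the protein from less of its activity. Parp1 transcripts remained in the PARP1 KD libraries, at the values given below. The comparison rested on 4 of the 6 RNA-seq libraries of the series, 2 of PARP1 KD and 2 of PJ34, and on the 7308 of 14012 genes whose mean FPKM over all 6 libraries was at least 1. FPKM, fragments scaled to transcript length and to the mapped fragments of the library, were summed over the transcripts of each gene. All differences below are PARP1 KD minus PJ34 on the log2(FPKM + 1) scale. The added 1 makes differences of low genes smaller than their FPKM ratios.

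All libraries came from Drosophila S2-DRSC cells, an embryonic line with hemocyte-like (blood cell) properties, at passages 10 to 15. PARP1 KD cells received double-stranded RNA against PARP1, in amounts of 100 and 500 that the titles give in ng and the descriptions in ug. PJ34 cells received 10 or 0.3 µM of the inhibitor. The 2 controls were untreated, so they carried neither a non-targeting dsRNA nor a stated vehicle, and they serve here only as a reference level. The 2 libraries of a treatment thus differ in dose as well as in culture, the deposited columns do not say which is which, and the libraries are called 1 and 2 without a dose. Agent, exposure time and the lowering of protein or activity cannot be told apart in this design, since PJ34 was given for less than a day and is not selective for PARP1 among its relatives.

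PARP1 binds chromatin and, when activated, transfers ADP-ribose units from NAD to itself, histones and other proteins. Its chain-adding activity loosens chromatin at loci such as the heat shock genes, while the protein itself can compact or mark chromatin without any catalysis. In flies Parp1 is the gene for the nuclear enzyme, Tnks encodes the related tankyrase, and Parg encodes the glycohydrolase that removes the chains.

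The libraries were unlike in ways that bear on every result. The 10 most abundant genes took 15.6% and 15.8% of all FPKM in PARP1 KD libraries, 26.9% and 38.1% in PJ34 libraries and 11.6% and 21.4% in controls. The value of 1 fragment, read from the most common ratio of low values between libraries, varied from 0.993 to 1.25 times that in PARP1 KD library 1, so depths were alike within that range. Only 12 genes differed by 2-fold or more between the PARP1 KD libraries, against 4165 between the PJ34 libraries, of which 4112 were lower in PJ34 library 2. That library was low in long transcripts: for genes over 4000 bases the median log2(FPKM + 1) was 2.79 and 2.54 in PARP1 KD libraries, 2.83 and 0.99 in PJ34 libraries, and 3.86 and 2.86 in controls. The median difference over all genes was 0.67, and differences are to be read against it. It was 0.08 without PJ34 library 2 and 0.03 after a length correction, in which a smooth curve of each library on transcript length was removed. The hemocyte markers of these cells summed to 1361 and 1170.2 FPKM in PARP1 KD libraries, 814 and 159.8 FPKM in PJ34 libraries and 1223 and 1513 FPKM in controls. Without Col4a1 and vkg, both long transcripts, the other 7 markers summed to 272.5 and 198.6 FPKM in PARP1 KD libraries, 207.6 and 104.7 FPKM in PJ34 libraries and 193.3 and 390.4 FPKM in controls, and the treatments overlapped. Pxn, at 5126 bases, was also a long transcript and stayed in this sum. Among the 7 markers eater, which was not called, had 9.31 and 7.18 FPKM in PARP1 KD libraries and 44.5 and 15.4 FPKM in PJ34 libraries. Higher in both PARP1 KD libraries were Pxn, described below, srp, which was not called, and Hml. srp had 49.4 and 43.8 FPKM in PARP1 KD libraries and 26.5 and 4.37 FPKM in PJ34 libraries. Hml had 1.23 and 1.06 FPKM against 0.136 and 0.007 FPKM. He, crq and NimC1 overlapped between the treatments. Muscle, neuron, fat body and germline markers summed to at most 30.4 FPKM in any library.

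**Figure D1:**
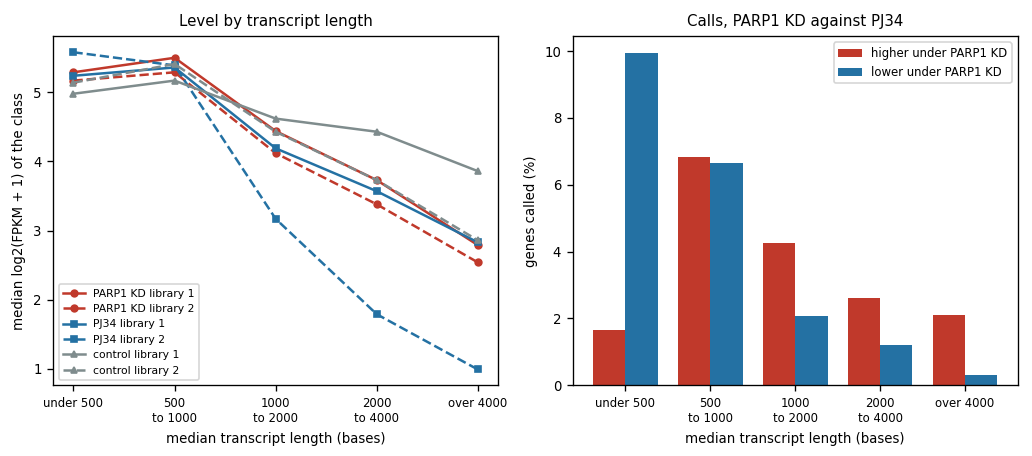
Left, median log2(FPKM + 1) of the genes in 5 classes of median transcript length, 1 line per library (red PARP1 KD, blue PJ34, grey untreated controls, dashed lines library 2). Right, percent of the genes of each class called higher (red) or lower (blue) under PARP1 KD than under PJ34; the PJ34 library 2 line leaves the others above 1000 bases, and lower calls go from 9.94% of genes under 500 bases to 0.301% of genes over 4000 bases.

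The targeted gene ordered the groups as their labels imply. Parp1 (CG40411, scaffold 3RHet, 1768646 to 2027212, dm3) had 16.7 and 10.2 FPKM in PARP1 KD libraries, 39.3 and 50.2 FPKM in PJ34 libraries, and 51.6 and 29.9 FPKM in controls. Both PARP1 KD libraries were below the other 4. The difference of -1.68 ± 0.66 (SE) did not pass the test (limma, adjusted p = 0.129). It did after the length correction, at -2.55. The locus overlaps 10 other genes of the table, whose reads the deposited values may share. Parg had 5.19 and 3.63 FPKM in PARP1 KD libraries, 3.66 and 0.594 FPKM in PJ34 libraries and 8.71 and 4.27 FPKM in controls. Tnks had 2.85 and 2.57 FPKM in PARP1 KD libraries, 3.44 and 0.389 FPKM in PJ34 libraries and 6.71 and 3.27 FPKM in controls. Neither passed the test (Parg 0.97 ± 0.72, adjusted p = 0.397; Tnks 0.58 ± 0.64, adjusted p = 0.563), and the sign of Tnks turned with median centring or the length correction (-0.17 under each).

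In the direct comparison 457 of 7308 genes (6.25%) passed the test (limma, Benjamini-Hochberg adjusted p under 0.05), 277 of them (3.79%) higher and 180 (2.46%) lower under PARP1 KD. These genes are called below. The shares of 3.79% higher and 2.46% lower are the reference for counts of calls in the gene lists. At an unadjusted p of at most 0.05 the counts were 1144 higher and 503 lower. In all 457 the 2 groups did not overlap, as was so on the higher side for 43.8% and on the lower side for 17.3% of all genes compared. In 250 of the higher and 175 of the lower genes every PARP1 KD library was 2-fold or more away from every PJ34 library. Of all 7308 genes compared, 563 met this on the higher side and 375 on the lower side. The called differences spanned 1.24 to 7.94 among higher genes, the upper end being a gene listed at 0 under PJ34, with a median of 2.44, and 1.46 to 8.62 in size among lower genes, with a median of -2.33. The gene just inside the threshold was CG32628 (adjusted p = 0.0498) and the gene just outside was Gpdh1 (adjusted p = 0.0501). An exact permutation test of 2 against 2 libraries cannot go below p = 0.333, so the calls lean on the spread that limma shares across genes.

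The split between directions depended on how the libraries were scaled. After the length correction 808 genes (11.1% of 7248) were higher and 1053 (14.5%) lower, and quantile normalization gave 466 higher and 544 lower. Of the 457 calls, 197 of the 277 higher and 176 of the 180 lower genes were called in the same direction after the length correction. The test also passed in the same direction for 274 higher and 180 lower genes without PJ34 library 2, where only the PARP1 KD pair is left to estimate the spread. The sizes of the higher calls leaned on that library. Without it their median difference was 1.62 instead of 2.44, and 130 of the 277 were smaller by over 1.5 times. The lower calls had a median of -2.17 instead of -2.33, and 1 of the 180 was smaller by over 1.5 times. Without PJ34 library 1, 30 higher calls were larger and 3 lower calls smaller by over 1.5 times.

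**Figure D2:**
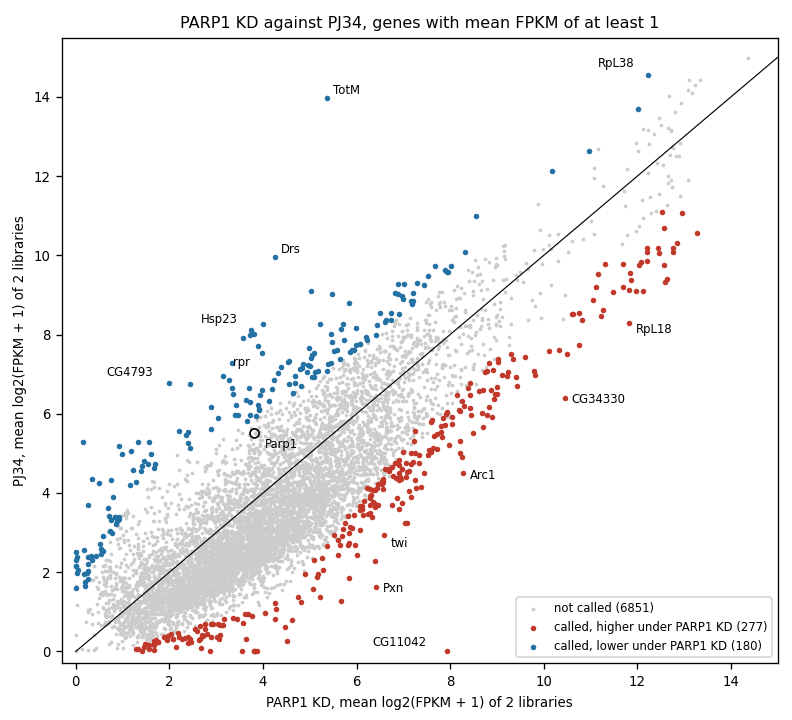
Mean log2(FPKM + 1) of the 2 PARP1 KD libraries (x axis) against that of the 2 PJ34 libraries (y axis), 1 point per gene, for 7308 genes. The 277 genes called higher under PARP1 KD (red) lie below the line of equality and the 180 called lower (blue) above it; the open circle is Parp1, which was not called.

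The controls lay nearer to PARP1 KD for most called genes, but also for most genes with a positive difference whether called or not. On the log2 scale both controls were nearer the PARP1 KD mean than the PJ34 mean in 213 of the 277 higher (76.9%) and 133 of the 180 lower genes (73.9%). Over all genes compared this was so for 85.5% of those with a positive and 37.8% of those with a negative difference. Both were nearer the PJ34 mean in 6 higher (2.17%) and 12 lower genes (6.67%), beside 2.31% and 35.9% of all genes with a positive and a negative difference. In the other 58 higher genes and 35 lower genes the controls lay on opposite sides. The controls entered no test, and their own unlikeness limits the reading. Antimicrobial peptide genes summed to 10790.0 FPKM in control 1 against 305 FPKM in control 2, and several hemocyte genes named below were low in control 1.

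The largest difference of all concerned TotM, a Turandot gene of the humoral stress response whose product is secreted after stress, injury or infection. TotM (chromosome 2L, 5329857 to 5330466) had 40.8 and 39.5 FPKM in PARP1 KD libraries, 12989.5 and 20231 FPKM in PJ34 libraries, and 23.8 and 49.3 FPKM in controls. The PARP1 KD libraries lay among the controls, while both PJ34 libraries stood far above every other library. The difference was -8.62 ± 0.42 (SE; limma, adjusted p = 5.35e-12), and TotM was the single gene called when no filter on low values was used. TotA, the founding Turandot gene, had 1.94 and 2.01 FPKM in PARP1 KD libraries, 32.7 and 44.5 FPKM in PJ34 libraries and 0.809 and 1.67 FPKM in controls (difference -3.72 ± 0.83, adjusted p = 0.0101). Both of the 2 Turandot genes that could be compared, of 8 in the table, were lower under PARP1 KD.

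Turandot genes are known targets of JAK/STAT signalling, but none of 11 JAK/STAT pathway genes was called. The STAT factor Stat92E had 46.0 and 29.9 FPKM in PARP1 KD libraries, 41.9 and 10.7 FPKM in PJ34 libraries and 64.2 and 54.4 FPKM in controls. Socs36E, the feedback inhibitor that the pathway itself induces, had 25.0 and 25.6 FPKM in PARP1 KD libraries, 67.8 and 23.8 FPKM in PJ34 libraries and 33.7 and 19.9 FPKM in controls. The groups overlapped for both genes (Stat92E 0.77 ± 0.69, adjusted p = 0.483; Socs36E -0.65 ± 0.64, adjusted p = 0.524). This depended on scaling for Socs36E, which was called lower after the length correction (limma, -1.50, adjusted p = 0.0243). The list then had 2 lower and no higher genes. Without PJ34 library 2 the Socs36E difference was -1.39.

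Drosomycin (Drs), an antifungal peptide gene best known as a readout of the Toll pathway, was the next lowest. Drs (chromosome 3L, 3369569 to 3369944) had 17.0 and 19.1 FPKM in PARP1 KD libraries, 696 and 1443 FPKM in PJ34 libraries, and 303 and 28.2 FPKM in controls (difference -5.72 ± 0.48, adjusted p = 1.99e-07). Control 1 was thus 10 times or more above control 2 in this gene. Dro, which encodes the antibacterial peptide drosocin, went the other way, with 10.2 and 12.3 FPKM in PARP1 KD libraries, 1.13 and 0.75 FPKM in PJ34 libraries, and 362 and 5.47 FPKM in controls (difference 2.66 ± 0.77, adjusted p = 0.0403). These were the only calls among 14 antimicrobial peptide genes, 1 in each direction, with a list median of 0.29.

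Upstream of these peptides none of 14 Toll and none of 22 Imd pathway genes passed the test as deposited. This depended on scaling. After the length correction 1 Toll gene was higher and 1 lower, and 2 Imd genes were higher and 5 lower. Of all genes 11.1% were then higher and 14.5% lower. The Toll ligand gene spz had 141 and 109 FPKM in PARP1 KD libraries, 184 and 33.9 FPKM in PJ34 libraries and 91.6 and 177 FPKM in controls. PGRP-SA, the Toll branch's recognition protein for Gram-positive bacteria, had 70.3 and 58.0 FPKM in PARP1 KD libraries, 18.5 and 17.5 FPKM in PJ34 libraries and 143 and 92.2 FPKM in controls, without overlap but at adjusted p = 0.0775 (difference 1.77 ± 0.60). PGRP-SA was called higher after the length correction (limma, 1.68, adjusted p = 0.0157). For the ubiquitin-conjugating enzymes eff and Uev1A, which act in Imd signalling, the differences were -0.54 ± 0.43 (adjusted p = 0.43) and -0.96 ± 0.45 (adjusted p = 0.212). Among 14 JNK pathway genes only egr, the fly TNF ligand, was called, at 2.21 ± 0.60 (adjusted p = 0.0306).

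The small heat shock genes formed a second group of transcripts that were high under PJ34 alone of the treatments. Hsp23 (chromosome 3L, 9374984 to 9375867) had 13.7 and 11.3 FPKM in PARP1 KD libraries, 279 and 277 FPKM in PJ34 libraries, and 26.2 and 97.0 FPKM in controls. Hsp26 had 12.3 and 9.76 FPKM in PARP1 KD libraries, 271 and 215 FPKM in PJ34 libraries, and 26.4 and 115 FPKM in controls. Hsp22 had 8.98 and 9.34 FPKM in PARP1 KD libraries, 98.5 and 99.2 FPKM in PJ34 libraries and 23.6 and 48.3 FPKM in controls. These 3 small chaperone genes sit in 1 cluster on 3L, and in each the PARP1 KD libraries were below all other libraries and the PJ34 libraries above them. The differences were -4.37 ± 0.52 for Hsp23 (adjusted p = 3.7e-05), -4.34 ± 0.54 for Hsp26 (adjusted p = 4.68e-05) and -3.30 ± 0.61 for Hsp22 (adjusted p = 0.00295). No other of the 20 heat shock genes compared was called and none was higher. The list median was -1.09, and 11 of the 20 were called lower after the length correction.

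A few genes of cell death and detoxification were also called. rpr (reaper), which triggers apoptosis by freeing caspases from their inhibitor, had 7.14 and 8.64 FPKM in PARP1 KD libraries, 86.0 and 176 FPKM in PJ34 libraries, and 7.29 and 6.36 FPKM in controls. The PARP1 KD libraries lay at the level of the controls, and both PJ34 libraries stood apart (difference -3.81 ± 0.62, adjusted p = 0.0013). Debcl, the fly's pro-apoptotic Bcl-2 relative, differed in the opposite sense, at 73.4 and 64.3 FPKM in PARP1 KD libraries, 20.2 and 6.66 FPKM in PJ34 libraries and 49.3 and 77.5 FPKM in controls (2.45 ± 0.66, adjusted p = 0.0295). These were the 2 calls among 12 apoptosis genes, beside 6.25% called among all genes.

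Among 25 redox defence genes, 2 glutathione transferases were lower and 3 genes higher under PARP1 KD. GstD5 had 77.2 and 49.99 FPKM in PARP1 KD libraries, 258 and 313 FPKM in PJ34 libraries and 114 and 86.3 FPKM in controls (-2.17 ± 0.47, adjusted p = 0.00803), and GstE7 differed by -2.20 ± 0.60 (adjusted p = 0.0306). Higher were the peroxiredoxins Prx3 (2.77 ± 0.69, adjusted p = 0.0187) and Prx2 (2.51 ± 0.57, adjusted p = 0.0107) and the transferase GstO2 (2.15 ± 0.55, adjusted p = 0.0215). Prx2 did not pass the length-corrected test (adjusted p = 0.0645). Among 36 cytochrome P450 genes, enzymes of hormone and toxin oxidation, Cyp4ac2 and Cyp6a14 were lower (-3.15 and -2.19) and Cyp9c1 and Cyp4g1 higher (2.61 and 2.36). Neither list moved one way, and of all genes compared 2.46% were lower and 3.79% higher.

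Further genes among the 12 largest falls had low levels in PARP1 KD libraries and controls and high levels under PJ34. TpnC4, a calcium-binding troponin C of muscle, had 4.41 and 4.45 FPKM in PARP1 KD libraries, 84.6 and 137 FPKM in PJ34 libraries and 1.03 and 3.72 FPKM in controls. No other gene of a muscle list was called, and only 3 of its 23 genes were high enough to be compared. lectin-28C, a C-type lectin, had 43.5 and 23.1 FPKM in PARP1 KD libraries, 460.1 and 646 FPKM in PJ34 libraries and 34.5 and 121 FPKM in controls. CG4793, CG6357, CG9616 and CG42300 had at most 13.8 FPKM in any PARP1 KD library and at most 4.51 FPKM in any control, and they reached 154, 280.4, 45.9 and 24.2 FPKM in a PJ34 library. CG41562 and CG40813, on unplaced scaffold U, moved in step at 267 and 356 FPKM and 224 and 299 FPKM in PJ34 libraries. Their spans are equally long and their values near equal in every library, so they may be copies, and reads may have been shared between them.

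**Figure D3:**
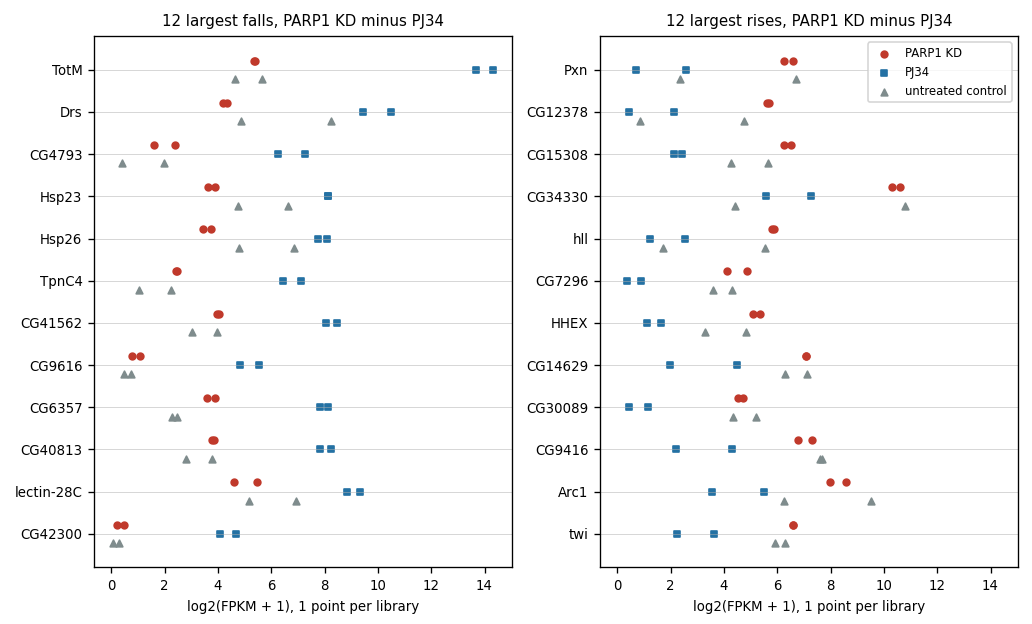
log2(FPKM + 1) of each library for the 12 largest falls (left) and 12 largest rises (right), with PARP1 KD (red circles) above PJ34 (blue squares) above untreated controls (grey triangles) in each row. In the left panel the controls mostly sit with PARP1 KD, except in Drs, Hsp23 and Hsp26; in the right panel Pxn, CG12378, CG34330 and hll have 1 control near PJ34 and 1 near PARP1 KD.

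Of 22 phagocytosis and hemocyte genes 3 were higher and 3 lower, beside 3.79% and 2.46% of all genes. Sr-CI, a scavenger receptor for bacteria, had 1.58 and 1.71 FPKM in PARP1 KD libraries, 33.9 and 15.0 FPKM in PJ34 libraries, and 0.938 and 2.50 FPKM in controls (-3.16 ± 0.87, adjusted p = 0.0328). Tep1, a thioester-containing opsonin relative, and lectin-24A, a lectin of the encapsulation response, differed by -2.39 ± 0.59 and -1.97 ± 0.51 (adjusted p = 0.0181 and 0.0233). In PJ34 libraries Tep1 had 10.45 and 2.07 FPKM and lectin-24A 3.22 and 4.845 FPKM. Both genes were below 1 FPKM in every PARP1 KD and control library. They met the filter on mean FPKM only through PJ34, so the direction of these calls was set by the filter. Pxn (peroxidasin, an enzyme that cross-links the collagen of basement membranes) was the most raised of the called genes above 0 in all 4 libraries. It had 94.7 and 75.2 FPKM in PARP1 KD libraries, 4.97 and 0.61 FPKM in PJ34 libraries, and 4.09 and 102 FPKM in controls (4.78 ± 0.80, adjusted p = 0.00162). NimC4, the apoptotic cell receptor SIMU, had 1017 and 781 FPKM in PARP1 KD libraries, 139 and 130.3 FPKM in PJ34 libraries, and 53.7 and 1347 FPKM in controls (2.72 ± 0.42, adjusted p = 0.000707). NimB2, its secreted relative, differed by 3.08 ± 0.82 (adjusted p = 0.0274). In these 3 genes control 1 lay between or below the PJ34 libraries and control 2 above both PARP1 KD libraries. Fewer cells of a type and less of its RNA per cell cannot be told apart in bulk libraries.

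The basement membrane list stood highest of those with 10 or more genes compared, with 5 of 14 genes higher, none lower, and a median of 2.09 beside 0.67 for all genes (1.42 beside 0.03 after the length correction). In all 14 the PARP1 KD libraries lay above both PJ34 libraries, as in 43.8% of all genes. Without PJ34 library 2 the list median was 0.80 beside 0.08 for all genes, with 7 higher and none lower. The laminin chain gene LanA had 179 and 143 FPKM in PARP1 KD libraries, 72.5 and 8.99 FPKM in PJ34 libraries and 144 and 177 FPKM in controls (2.57 ± 0.68, adjusted p = 0.0258). The collagen IV genes Col4a1 and vkg differed by 2.47 ± 0.65 and 2.47 ± 0.72 (adjusted p = 0.025 and 0.0441), and for both the length-corrected test was not passed. Without PJ34 library 2 the difference was 0.86 for Col4a1 and 0.59 for vkg, and vkg lost its call (adjusted p = 0.179). Col4a1 had 729 and 637 FPKM in PARP1 KD libraries, 376 and 39.0 FPKM in PJ34 libraries, and 633 and 808 FPKM in controls. As for other long transcripts, PJ34 library 2 was far below PJ34 library 1, and the part of transcript length in these differences was not tested beyond the correction.

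Of 38 actin genes 7 were higher and 1 lower, beside 3.79% and 2.46% of all genes. The list median was 1.12 beside 0.67 for all genes. It was 0.34 beside 0.03 after the length correction, and 0.28 beside 0.08 without PJ34 library 2. Act42A, a cytoplasmic actin, had 1066 and 767 FPKM in PARP1 KD libraries, 292 and 52.9 FPKM in PJ34 libraries and 2066 and 486 FPKM in controls (2.85 ± 0.56, adjusted p = 0.00474). The filamin cher, the capping protein subunit cpb and the Arp2/3 subunit Arpc5 differed by 2.52, 2.33 and 2.24. Of these, cpb lost its call after the length correction (adjusted p = 0.0626). The single lower gene was Arpc3B, a paralog of an Arp2/3 subunit, with 13.9 and 14 FPKM in PARP1 KD libraries, 173 and 254 FPKM in PJ34 libraries and 7.05 and 11.1 FPKM in controls (-3.82 ± 0.54, adjusted p = 0.000259). Arpc5 and Arpc3B were thus called in opposite directions.

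The 12 largest rises held a few regulators. twi (twist, a mesoderm transcription factor) had 94.2 and 96.3 FPKM in PARP1 KD libraries, 11.4 and 3.73 FPKM in PJ34 libraries and 59.3 and 78.0 FPKM in controls (3.65 ± 0.67, adjusted p = 0.00287). HHEX, a homeobox gene, had 33.4 and 39.3 FPKM in PARP1 KD libraries, 2.1 and 1.15 FPKM in PJ34 libraries and 8.84 and 27.3 FPKM in controls (3.85 ± 0.85, adjusted p = 0.00906). For twi both controls were nearer to PARP1 KD. For HHEX control 2 was, and control 1 lay about midway between the treatments on the log2 scale. Arc1, a capsid-like RNA carrier derived from a retroelement, had 249.6 and 385 FPKM in PARP1 KD libraries, 43.8 and 10.7 FPKM in PJ34 libraries and 732 and 75.4 FPKM in controls (3.77 ± 0.58, adjusted p = 0.000704). CG34330 and hll, an acyl-CoA synthetase relative, rose by 4.04 ± 0.49 (adjusted p = 3.76e-05) and 3.97 ± 0.80 (adjusted p = 0.00516), with control 1 at 20.4 and 2.25 FPKM and control 2 at 1788 and 45.0 FPKM. CG7296, CG14629, CG30089, CG9416, CG15308 and CG12378 differed by 3.79 to 4.39. Roc1b, a RING subunit of cullin ubiquitin ligases, joined the list when the length-corrected test was also required (3.57 ± 0.86, adjusted p = 0.0154).

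Ribosomal protein genes were split. Of 51 large-subunit genes 21 were higher and 2 lower, with a median of 1.24, and of 37 small-subunit genes 8 were higher and none lower, with a median of 0.50. RpL18 had 3302 and 4027 FPKM in PARP1 KD libraries, 759.6 and 130.0 FPKM in PJ34 libraries, and 2147 and 1400.1 FPKM in controls (3.53 ± 0.56, adjusted p = 0.000897). RpL28 and RpL6 differed by 3.23 and 3.02, and RpS13, RpS4, sta and RpS7 by 2.81, 2.68, 2.57 and 2.54. RpL6 and RpS4 did not pass the length-corrected test (adjusted p = 0.0671 and 0.0806). RpL38 went the other way, with 5478 and 4229 FPKM in PARP1 KD libraries, 17378 and 33424 FPKM in PJ34 libraries, and 4043 and 8741 FPKM in controls (-2.32 ± 0.49, adjusted p = 0.00695). RpL15 was also lower, at -1.70 ± 0.46 (adjusted p = 0.0295). In 30 large-subunit genes the PARP1 KD libraries lay above both PJ34 libraries and in 18 below both, beside 43.8% and 17.3% of all genes. Summed over the subunit the FPKM were 287525 and 287012 in PARP1 KD libraries, 310360.5 and 417748 in PJ34 libraries, and 187570.3 and 263759.5 in controls. The higher calls in this list were sensitive to scaling, with 18 higher and 6 lower after the length correction and 3 higher and 6 lower after quantile normalization.

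Some genes of respiration and protein turnover were higher under PARP1 KD. Of 65 nuclear genes of oxidative phosphorylation 14 were higher and none lower (median 0.95 beside 0.67 for all genes), 20 had a negative difference, and after the length correction 22 were higher and 1 lower. The ATP synthase subunit gene ATPsynD had 414 and 420.4 FPKM in PARP1 KD libraries, 95.2 and 26.1 FPKM in PJ34 libraries, and 358 and 178 FPKM in controls (3.03 ± 0.53, adjusted p = 0.00205). ATPsynE, ATPsynC and the complex I subunit ND-42 differed by 2.84, 2.73 and 2.59. ND-42 lost its call after the length correction (adjusted p = 0.0654). Of 35 proteasome genes 7 were higher and none lower, beside 3.79% and 2.46% of all genes. Their median was 1.36 beside 0.67 for all genes, with 9 negative differences. Among the 7 were the ubiquitin receptor Rpn13 (2.77 ± 0.71, adjusted p = 0.0218) and the core subunits Prosbeta3, Prosbeta6 and Prosbeta2 (2.64, 2.46 and 2.44). Prosbeta6 and Prosbeta2 were not called after the length correction (adjusted p = 0.0548 and 0.0623). Mitochondrial ribosome genes leaned less, with mRpL48 and mRpL12 higher (2.79 and 2.57), mRpS5 lower (-3.06 ± 0.50) and a median of 0.19 over 73 genes.

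Calls in the metabolic lists were higher as deposited, at 2 of 16, 4 of 14 and 3 of 16 genes where a list had any, beside 3.79% of all genes. Of 16 genes of the TCA cycle, Mdh2 and the pyruvate dehydrogenase subunit Pdha were higher (2.55 and 2.16), and none of 13 glycolysis genes was called. Eno had 316 and 250.4 FPKM in PARP1 KD libraries, 179 and 49.2 FPKM in PJ34 libraries and 491 and 356 FPKM in controls (1.57 ± 0.53, adjusted p = 0.0778), and Gapdh2 differed by 0.66 ± 0.48 (adjusted p = 0.389). Of 14 genes of amino acid and one-carbon metabolism 4 were higher: Gdh, glutamate dehydrogenase (3.28 ± 0.88, adjusted p = 0.0291), Cth, cystathionine gamma-lyase (2.40 ± 0.69, adjusted p = 0.0399), Ahcy, which hydrolyses S-adenosylhomocysteine (1.80 ± 0.52, adjusted p = 0.0409), and Gs2, glutamine synthetase (1.42 ± 0.41, adjusted p = 0.0429). After the length correction that list had 4 higher and 2 lower genes, and Gs2 was not among the calls. Of 16 genes of sterol and fatty acid metabolism the fatty acid synthase FASN1, the lipase bmm and the acyl-CoA synthetase bgm were higher (2.76, 2.71 and 1.39), and bgm lost its call after the length correction. None of 9 genes of NAD synthesis and sirtuins was called, Naprt and Naam differing by -0.14 ± 0.73 (adjusted p = 0.913) and -0.14 ± 0.75 (adjusted p = 0.911). After the length correction 3 genes of this list were lower and none higher, with a median of -0.90 beside 0.03 for all genes. Quantile normalization gave 2 lower and none higher. NAD is the substrate that PARP1 consumes.

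Protein-folding genes of the endoplasmic reticulum were higher in 3 of 19 cases, none lower, beside 3.79% and 2.46% of all genes. The lumenal calcium-binding chaperone Calr had 1607 and 1566 FPKM in PARP1 KD libraries, 703 and 191 FPKM in PJ34 libraries, and 1246 and 1011 FPKM in controls (2.11 ± 0.50, adjusted p = 0.0132). The disulfide isomerases ERp60 and Pdi differed by 2.17 and 2.16. After the length correction the list had 2 higher and 3 lower genes, and ERp60 was not called (adjusted p = 0.105). In the autophagy and lysosome list only Lamp1, a lysosomal membrane protein, was called, at -1.62 ± 0.43 (adjusted p = 0.0267). Translation initiation factors eIF3g1 and eIF3h were higher (2.56 and 1.94, 2 of 36, beside 3.79% of all genes). Both lost the call after the length correction (adjusted p = 0.0687 and 0.107), where the list had 2 lower and no higher genes, and eIF3h also without PJ34 library 2 (0.76, adjusted p = 0.0832). Also higher was the snoRNP protein gene nop5 (2.31, 1 of 18 nucleolar genes, beside 3.79% of all genes).

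PARylation acts on several RNA-binding proteins. Of the transcripts of hnRNP, SR and spliceosome proteins 2 of 13, 1 of 10 and 1 of 30 were called, beside 6.25% of all genes. Hrb87F, an hnRNP A/B protein gene, had 132 and 111 FPKM in PARP1 KD libraries, 47.1 and 8.31 FPKM in PJ34 libraries, and 182 and 66.1 FPKM in controls (2.53 ± 0.65, adjusted p = 0.023). The poly(U)-binding splicing regulator hfp differed by 2.24 ± 0.63 (adjusted p = 0.0349), and these were the 2 calls of 13 hnRNP genes. Hrb98DE, which encodes the PARylation target Hrp38, had 158.9 and 124.0 FPKM in PARP1 KD libraries, 82.2 and 20.4 FPKM in PJ34 libraries and 243.2 and 108.2 FPKM in controls, without overlap of the treatments but at adjusted p = 0.0752 (difference 1.74 ± 0.58). It was added after its value was seen. The SR protein B52 had 197 and 186 FPKM in PARP1 KD libraries, 82.4 and 11.8 FPKM in PJ34 libraries, and 276 and 88.0 FPKM in controls (2.56 ± 0.64, adjusted p = 0.0201; 1 of 10). SmD3, a core protein of spliceosomal snRNPs, was the only call of 30 spliceosome genes, with 150.0 and 183 FPKM in PARP1 KD libraries, 41.7 and 6.39 FPKM in PJ34 libraries and 140.4 and 47.0 FPKM in controls (3.23 ± 0.66, adjusted p = 0.00553). All 4 called genes were higher, against list medians of 0.38 (hnRNP), 0.57 (SR) and 1.09 (spliceosome). The hnRNP median turned negative at -0.19 with quantile normalization, at -0.37 with median centring and at -0.47 with the length correction. The SR median turned negative at -0.18 with medians centred and at -0.08 after the length correction, where B52 lost its call (1.83, adjusted p = 0.0586) and another SR gene was lower.

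**Figure D4:**
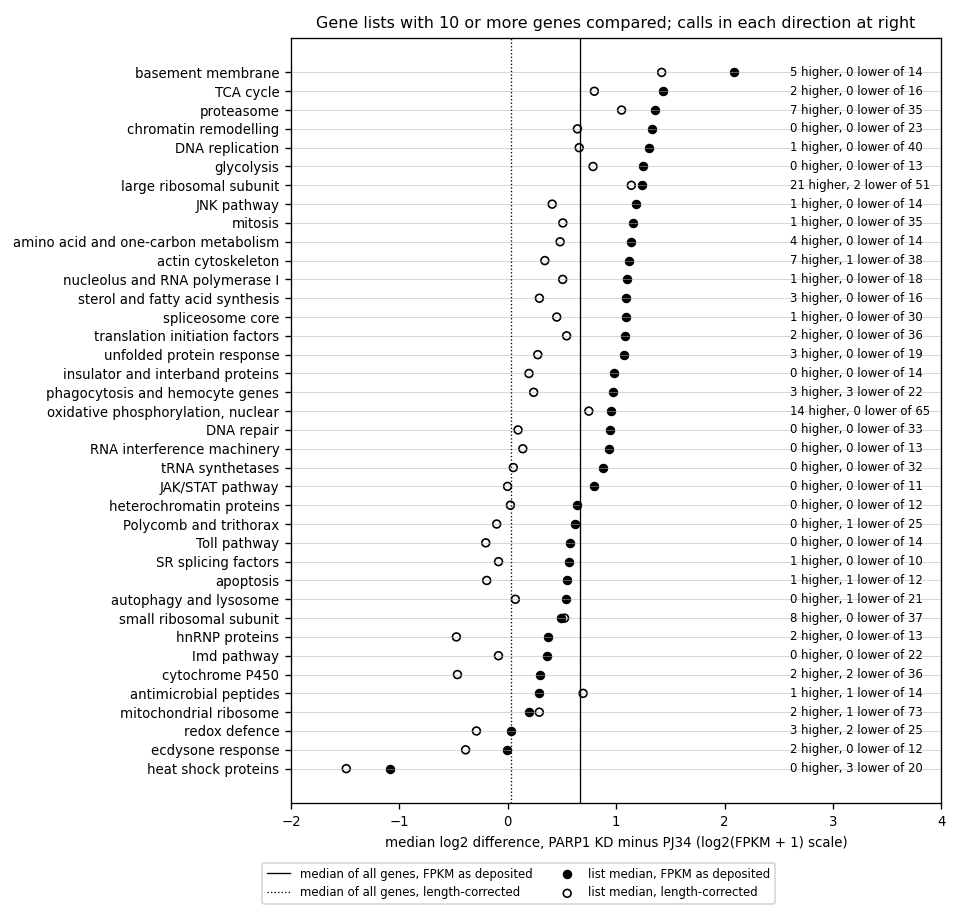
Median log2 difference (PARP1 KD minus PJ34) of each gene list with 10 or more genes compared, as deposited (filled) and length-corrected (open), with the medians of all genes as solid (0.67) and dotted (0.03) lines and the calls at right. Basement membrane genes stand highest (2.09) and heat shock genes lowest (-1.09); the correction moves most lists left, as it does the line of all genes, and moves antimicrobial peptides, the mitochondrial ribosome and the small ribosomal subunit right.

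Chromatin genes gave calls in both directions. Of 9 genes of variant and linker histones His4r, a replication-independent H4 gene, and His3.3B, a replacement H3 gene, were lower. His4r had 1305 and 1024 FPKM in PARP1 KD libraries, 3878 and 5116 FPKM in PJ34 libraries and 749 and 2023 FPKM in controls (-1.94 ± 0.42, adjusted p = 0.00815). His3.3B had 295 and 199 FPKM in PARP1 KD libraries, 635 and 934 FPKM in PJ34 libraries and 469 and 657 FPKM in controls (-1.67 ± 0.43, adjusted p = 0.023), so that here the PARP1 KD libraries stood below both controls. PCNA, the replication clamp (2.13 ± 0.50, adjusted p = 0.0124), was the only call of 40 replication genes. The Aurora B kinase gene aurB (2.30 ± 0.67, adjusted p = 0.0413) was the only call of 35 mitosis genes. It was not called after the length correction (adjusted p = 0.0571). The DNA-binding Polycomb protein gene pho was the only call of 25 Polycomb and trithorax genes. It lies on chromosome 4 and had 15.3 and 9.49 FPKM in PARP1 KD libraries, 89.6 and 109 FPKM in PJ34 libraries and 30.3 and 32.7 FPKM in controls (-2.93 ± 0.60, adjusted p = 0.00553).

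As deposited, no gene passed the test in the lists for DNA repair (33 genes), chromatin remodelling (23), heterochromatin proteins (12), insulator and interband proteins (14), RNA interference (13) and tRNA synthetases (32). This depended on scaling. After the length correction DNA repair had 3 higher and 2 lower genes, and chromatin remodelling 4 higher and none lower. Heterochromatin proteins had 1 lower and RNA interference 3 lower, with none higher. Insulator proteins had 1 each way and tRNA synthetases 2 each way, beside 11.1% higher and 14.5% lower among all genes. The most abundant members of these lists differed as follows as deposited. The repair nuclease gene Rrp1 differed by 1.81 ± 0.79 (adjusted p = 0.176) and the checkpoint kinase gene grp by 0.79 ± 0.68 (adjusted p = 0.461). Nurf-38 and Chrac-14, of remodelling complexes, differed by 0.50 ± 0.44 (adjusted p = 0.474) and 0.57 ± 0.50 (adjusted p = 0.464). Su(var)205, which encodes heterochromatin protein HP1a, had 345 and 259.7 FPKM in PARP1 KD libraries, 249 and 186 FPKM in PJ34 libraries and 274 and 300.4 FPKM in controls (0.47 ± 0.44, adjusted p = 0.488), and the satellite-binding D1 differed by 0.75 ± 0.51 (adjusted p = 0.357). The insulator genes mod(mdg4) and Ibf2 differed by 1.31 ± 0.52 (adjusted p = 0.136) and -0.01 ± 0.53 (adjusted p = 0.995). In the RNA interference list Tudor-SN differed by 1.69 ± 0.68 (adjusted p = 0.14) and AGO2, the slicer that uses long dsRNA, by 1.06 ± 0.71 (adjusted p = 0.355). AspRS and AsnRS differed by 0.01 ± 0.49 (adjusted p = 0.99) and -0.71 ± 0.55 (adjusted p = 0.416). AsnRS was called lower after the length correction (limma, -1.52, adjusted p = 0.0244). Among 12 ecdysone-response genes Cth and Eip63E were higher and none lower as deposited, against 2 higher and 5 lower after the length correction and 2 higher and 6 lower without PJ34 library 2, and of 3 neuronal genes the synaptic scaffold gene brp was higher (2.34 ± 0.55, adjusted p = 0.0133), a call lost after the length correction (adjusted p = 0.0525) where the other 2 were lower. The p-values above the threshold do not show that the treatments act alike on them.

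Genome position set a further group apart. Of 54 genes compared on the small, largely heterochromatic chromosome 4 13 (24.1%) were lower and none higher, and of 45 genes on the pericentric scaffolds 12 (26.7%) were lower and none higher, beside 2.46% lower and 3.79% higher among all genes. Median differences were -1.31 and -0.78. On the arms 2L, 2R, 3L, 3R and X, 1.28% to 3.52% of genes were lower and medians ran from 0.56 to 0.74. The calls lower were 37 of 54 and 19 of 37 after the length correction, and 35 of 54 and 22 of 45 without PJ34 library 2. After the length correction 2 scaffold genes were higher, and without PJ34 library 2 there were 3 higher on the scaffolds and 1 on chromosome 4. Median centring left 3 and 1 lower calls, with medians of -2.05 and -1.52. The positions were looked at after earlier results of these data had pointed to them.

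The genes of these regions have unrelated roles. rl (rolled, the ERK kinase, scaffold 2RHet, 198176 to 247809) had 28.2 and 18.1 FPKM in PARP1 KD libraries, 137 and 187 FPKM in PJ34 libraries and 51.7 and 77.2 FPKM in controls (-2.77 ± 0.53, adjusted p = 0.00392). Haspin, a histone H3 kinase gene on 2RHet, had 11.5 and 8.31 FPKM in PARP1 KD libraries, 61.7 and 86.6 FPKM in PJ34 libraries and 13.9 and 23.0 FPKM in controls (-2.78 ± 0.64, adjusted p = 0.0116). RpL15, on 3LHet, and AGO3 and mRpS5, at 23547715 to 23682722 and 24530335 to 24536634 of 3L, were also lower. AGO3, a piRNA-pathway Argonaute, had 2.1 and 1.26 FPKM in PARP1 KD libraries, 22.6 and 27.4 FPKM in PJ34 libraries and 1.08 and 4.16 FPKM in controls (-3.29 ± 0.86, adjusted p = 0.0245). Parp1 itself lies on 3RHet, and 14 of the 45 scaffold genes had a lower difference than its -1.68, so its difference from PJ34 was not outside the range of its neighbours. How much of it comes from the dsRNA was not tested. rl and Haspin were chosen for naming after their values were seen.

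**Figure D5:**
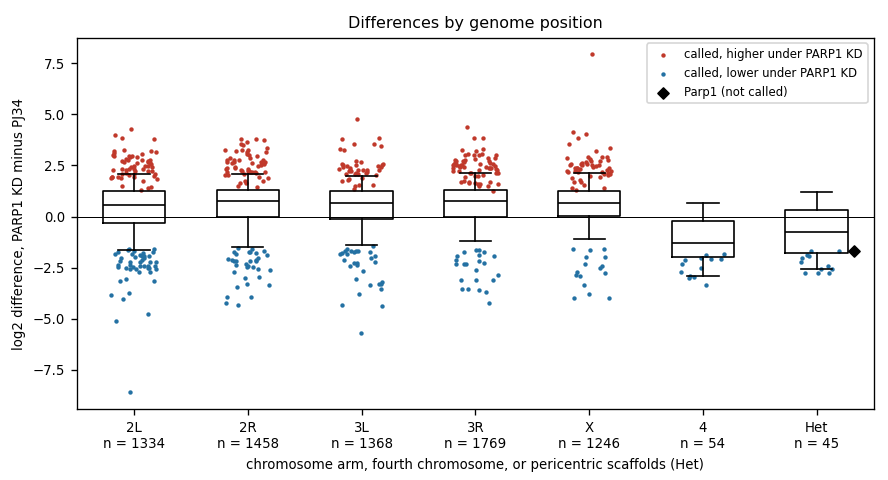
log2 difference (PARP1 KD minus PJ34) of the genes on each chromosome arm, chromosome 4 and the pericentric scaffolds (Het). Boxes are quartiles with the median, whiskers reach the 5th and 95th percentiles, and points are called genes (red higher, blue lower under PARP1 KD); chromosome 4 and Het medians are -1.31 and -0.78, and neither has a gene called higher. The diamond is Parp1.

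In 12 lower and 6 higher calls both controls were nearer the PJ34 than the PARP1 KD mean on the log2 scale, though often between the treatments. Of the 12 lower genes 4 came from these regions, which held 13 (chromosome 4) and 12 (scaffolds) of the 180 lower calls. Called or not, both controls were nearer PJ34 in 20 of the 54 chromosome 4 and 6 of the 45 scaffold genes, beside 849 of all 7308. Both were nearer PARP1 KD in 23 of the 54 and 23 of the 45, beside 5283 of all 7308. The genes named here were chosen after their values were seen. Ephrin, a guidance ligand on chromosome 4 (592383 to 598159), had 3.16 and 1.51 FPKM in PARP1 KD libraries, 25.5 and 25.3 FPKM in PJ34 libraries and 18.9 and 11.8 FPKM in controls (-3.03 ± 0.86, adjusted p = 0.0372). myo, a TGF-beta family ligand, lies on the same chromosome and differed by -2.70. uex, a magnesium transporter relative on 2RHet, had 14.15 and 6.46 FPKM in PARP1 KD libraries, 57.9 and 66.2 FPKM in PJ34 libraries and 51.9 and 39.8 FPKM in controls (-2.57 ± 0.67, adjusted p = 0.0237). p120ctn, a catenin (2R, 482798 to 496995), and cta, a G protein alpha subunit (2L, 22874534 to 22885080), lie at the centromere ends of their arms and differed by -2.72 and -2.51, as did CR40005 beside cta, by -2.71. Also in this group were Fie (-2.42), Arl8, a lysosomal GTPase (-2.32), Nepl3 (-1.73), His3.3B and CG4259 (-1.64). In all 12 each PARP1 KD library was lower than either control, and each PJ34 library was higher than at least 1 control. Except in His3.3B and CG4259, both PJ34 libraries were higher than both controls, so the controls lay between the treatments. p120ctn had 23.9 and 15.2 FPKM in PARP1 KD libraries, 52.1 and 56.7 FPKM in controls and 111 and 155 FPKM in PJ34 libraries.

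The 6 higher genes of this kind were also scattered in function. IP3K1, an inositol trisphosphate kinase, had 65.9 and 94.6 FPKM in PARP1 KD libraries, 17.6 and 4.98 FPKM in PJ34 libraries, and 20.4 and 26.3 FPKM in controls (2.92 ± 0.68, adjusted p = 0.0121). CG7299 had 19.4 and 24.7 FPKM in PARP1 KD libraries, 0.418 and 0 FPKM in PJ34 libraries, and 2.25 and 3.65 FPKM in controls. Ant2, an ADP/ATP carrier paralog, had 6.16 and 6.69 FPKM in PARP1 KD libraries, 0.760 and 0.478 FPKM in PJ34 libraries and 1.94 and 1.89 FPKM in controls (2.20 ± 0.64, adjusted p = 0.0416). Ant2, sloth1, CG34219 and IP3K1 overlap another gene, and the values do not keep strand. Gs2 and sloth1 completed the group, at 2.03 and 2.37 FPKM and at 4.72 and 8.36 FPKM in PARP1 KD libraries. CG34219 had 4.90 and 5.82 FPKM in PARP1 KD libraries and at most 0.103 FPKM in the other 4.

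In 12 called genes both libraries of a treatment were listed at 0, here taken as below 0.001 FPKM, a limit set after the table was seen. Both PJ34 libraries were at 0 in 7 and both PARP1 KD libraries in 5. CG11042 had 233 and 257 FPKM in PARP1 KD libraries, was listed at 0 in PJ34 libraries, and had 3.20 and 234 FPKM in controls. It lies within His3.3B on the X chromosome, which was lower under PARP1 KD, and reads of the overlap cannot be told apart. Lasp, an actin-binding protein of muscle, was at 15.8 and 11.7 FPKM in PARP1 KD libraries and 42.6 and 21.9 FPKM in controls. Eip63E, a cyclin-dependent kinase gene induced by ecdysone, had 15.7 and 10.8 FPKM in PARP1 KD libraries and 25.3 and 23.9 FPKM in controls, and for, a cGMP-dependent protein kinase, had 14.2 and 11.9 FPKM in PARP1 KD libraries and 16.9 and 9.88 FPKM in controls. CG5023 had 13.7 and 12.8 FPKM in PARP1 KD libraries and 0.0593 and 12.1 FPKM in controls. A value of 0 in such a table can be a failed estimate, as widely used genes such as eIF5 were listed at 0 in 1 control, so no fold is given.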

How the data were processed

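S2 cell RNA-seq libraries of PARP1 KD (2), PJ34 (2) and untreated controls (2) were used. The authors aligned reads with TopHat2 2.0.10 and Bowtie2 to dm3 and deposited FPKM per transcript from Cufflinks 2.1.1 and Cuffdiff, so counts and depth are not in the table and length bias is carried by the values. The 21081 transcript rows were summed to 14012 genes by CG number, 13602 of which matched a gene symbol. Genes with mean FPKM of at least 1 over the 6 libraries (7308) were kept, with log2(FPKM + 1). limma 3.58.1 (R 4.3.3, intensity trend, two-sided) was fitted on the 4 treated libraries, and p-values were adjusted by Benjamini-Hochberg over all genes. Controls entered no test. The SE is limma's moderated one, n = 2 for each group. The replicates are separate samples of 1 group that also differ in dose, so p-values measure the spread between these libraries. Transcript lengths (7248 genes) came from a newer annotation and fed a lowess correction with span 0.3. Coordinates are dm3, 1-based.

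Named genes were Parp1, Parg and Tnks, the 12 largest rises and 12 largest falls among called genes above 0 in all 4 libraries without overlap, the same also called after length correction, up to 4 called members per direction of each of 47 lists or else the 2 most abundant, and up to 5 genes listed at 0 in 1 group. Some genes that met these rules are not reported here. Members and lists were chosen with earlier results of these data known. Of the list entries 17 had no match. The mitochondrial-genome list matched no gene, so the 13 such genes compared are given by position at the end. No gene of the fat body list was high enough to compare. Alternatives were pseudocounts 0.1 and 5, other scalings, filters, libraries and transcript rows. The script was tested on simulated data. Python 3.11.15 with pandas was used.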

Additional observations from a re-analysis of the deposited data

How the results depend on the processing

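The PARP1 KD against PJ34 calls (457: 277 higher, 180 lower) changed by over 1.5 times in number under many settings, and the cause was not tested beyond what each setting removes. Counts of all, higher and lower calls were 268, 154 and 114 with pseudocount 0.1, 819, 535 and 284 with pseudocount 5, 52, 14 and 38 with each library centred on its median, 1861, 808 and 1053 after length correction, 1010, 466 and 544 with quantile normalization, 188, 71 and 117 with all 6 libraries in the fit, 50, 20 and 30 without the intensity trend, and 1, 0 and 1 with no filter on low values (limma, where an unadjusted p of at most 0.05 was met by 1418 higher and 772 lower genes). With mean FPKM of at least 5 the higher calls were 424. The higher share of calls was 60.6% as deposited, 43.4% after length correction, 26.9% with medians centred and 46.1% with quantile normalization. Leaving out each library in turn gave 26 to 5521 calls, 10 to 4622 higher and 15 to 901 lower. Leaving out a PJ34 library leaves the alike PARP1 KD pair alone to set the spread (5521 calls without PJ34 library 1, 1660 without PJ34 library 2), leaving out a PARP1 KD library leaves the unlike PJ34 pair (27 and 26 calls), and the lone library is assumed to vary like the others. Length correction without PJ34 library 2, added after seeing the data, gave 4612 calls, 2320 higher and 2292 lower. All of the 457 genes called as deposited were called in the same direction without PJ34 library 1 and 454 without PJ34 library 2.

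Parp1 passed the test after quantile normalization (-2.13) and length correction (-2.55), with length correction without PJ34 library 2 (-1.53), and without either PJ34 library. Leaving out each library its difference ran from -2.01 to -1.36, and -1.86 and -1.51 were the values without PJ34 libraries 1 and 2. No called gene named in the report changed sign under any alternative in which it was fitted, those named after their values were seen included. Among named genes that were not called, signs turned as follows. Median centring gave Tnks -0.168, spz -0.107, Nurf-38 -0.25, Chrac-14 -0.172, Su(var)205 -0.272, Gapdh2 -0.0879 and AspRS -0.733, and quantile normalization AspRS -0.0721. Length correction gave Tnks -0.165, Stat92E -0.0593, spz -0.148, grp -0.028, Ibf2 0.0792 and AspRS -0.77, and without PJ34 library 2 as well Tnks -0.154, Stat92E -0.127, spz -0.666, AGO2 -0.134, grp -0.0183, Gapdh2 -0.0776 and AspRS -0.49. Leaving out each library in turn, values ran from -0.26 to 1.42 for Tnks, -0.635 to 0.364 for Naprt, -0.396 to 0.111 for Naam, -0.17 to 1.7 for Stat92E, -1.39 to 0.0848 for Socs36E, -0.563 to 1.84 for spz, -0.188 to 2.31 for AGO2, -0.102 to 0.0867 for Ibf2, -0.383 to 0.41 for AspRS and -1.6 to 0.175 for AsnRS. No paired analysis was possible because the titles number every treated library as replicate 1, and no source ties the numbers of the deposited columns to a shared culture or dose.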

Other observations

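Summing transcripts can hide changes of isoform. With transcript rows as deposited 513 transcripts were called (limma, adjusted p under 0.05), and 8 genes, of 1674 with 2 or more transcripts compared, had transcripts called in opposite directions. They were Moe, Maf1, CG41099, Polr3I, Mkrn1, pbl, Acsl and eIF5. In Moe, which links actin to the membrane, transcript RC had 115.0 and 74.0 FPKM in PARP1 KD libraries, at most 0.792 FPKM in PJ34 libraries, and 1.17 and 117 FPKM in controls, and transcript RJ was at 0 in PARP1 KD libraries, with 69.1 and 15.0 FPKM in PJ34 libraries and 156 and 1.21 FPKM in controls. The summed gene was not called (adjusted p = 0.297). In Acsl, a long-chain acyl-CoA synthetase, transcript RI had 48.1 and 29.2 FPKM in PARP1 KD libraries and at most 0.051 FPKM in PJ34 libraries, whereas RA had at most 0.943 FPKM in PARP1 KD libraries and 12.8 and 13.4 FPKM in PJ34 libraries. Polr3I, an RNA polymerase III subunit, had 14.9 and 9.67 FPKM of RA in PARP1 KD libraries against none above 0.001 FPKM in PJ34 libraries, and of RB at most 0.00218 FPKM in PARP1 KD libraries against 26.1 and 37.7 FPKM in PJ34 libraries. Isoform FPKM are estimates in which reads of common exons are shared out, and their part in these opposite calls was not tested.

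On the mitochondrial genome 2 of 13 genes were lower under PARP1 KD and none higher, with medians of log2(FPKM + 1) of 9.80 and 10.1 in PARP1 KD libraries, 10.2 and 11.1 in PJ34 libraries and 8.34 and 9.57 in controls.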
